A study of Mus musculus with 3 samples.

Results

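The spots described here were the macrophage-rich spots of 3 mouse skin wound sections, collected on Days 3, 7 and 14 after injury and profiled on Visium slides, where each spot captures RNA from a small disc of tissue that can hold several cells of different types. A spot was eligible when it was marked as lying under tissue and held 500 or more UMIs (unique molecular identifiers, counts of captured RNA molecules). Every eligible spot was scored by the share of its UMIs that came from 8 genes of macrophages, namely *Lyz2*, *Cd68*, *Ctss*, *C1qa*, *C1qb*, *C1qc*, *Tyrobp* and *Fcer1g*. The 15% of spots with the highest score in each section were taken as macrophage-rich. They numbered 262 of 1748 eligible spots, with 78 of 520 on Day 3, 81 of 539 on Day 7 and 103 of 689 on Day 14. All 3 sections were fresh frozen wounds of C57BL/6J mice, which the study's methods describe as male animals carrying several full-thickness excisional punch wounds in the dorsal skin. The labels of the groups differed only in the time since wounding, no unwounded skin entered the comparisons, and each day was represented by 1 section. Day, animal, section and slide therefore cannot be told apart, no p-value was computed, and every interval below is an exact 95% interval that covers counting error only.

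Macrophages enter a skin wound as monocytes from blood and join those already resident in dermis and fascia. Early wound macrophages release chemokines and cytokines and take up dead cells and erythrocytes, and later ones release growth factors, present antigen and act on fibroblasts while granulation tissue forms and is remodelled. C1q, the first component of the classical complement pathway, is made largely by tissue macrophages, and lysozyme (*Lyz2*) is shared by macrophages, monocytes and neutrophils.

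Pooled, the macrophage-rich spots came to 342283, 997384 and 585522 UMIs in the order of the days, and the other eligible spots to 1412137, 3442966 and 4024295. The median macrophage-rich spot had 2478 UMIs on Day 3 against 1948 in the other spots, 12453 against 6167 on Day 7, and 4712 against 4876 on Day 14. Of the spots under tissue, 144 of 664 on Day 3, 10 of 549 on Day 7 and 8 of 697 on Day 14 fell short of 500 UMIs and were not scored. All slides shared the same set of 4992 spot barcodes, as printed slides do.

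The score itself chose the spots, so its values are a description. On Day 3 the 8 genes made up between 0.721% and 1.71% of the UMIs of a macrophage-rich spot, with a median of 0.930%, against a median of 0.262% and a maximum of 0.711% elsewhere. On Day 7 the range was 0.382% to 1.35% with a median of 0.469%, against 0.196% as the median of the other spots. On Day 14 it was 0.195% to 0.947% with a median of 0.251%, against 0.0844%. The level of the score thus stood in the order Day 3, Day 7 and Day 14, and the lowest Day 3 member lay above the median member of both later sections. The last spot inside the limit and the first outside lay close together. On Day 3 they stood at 0.7206% (41 of 5690 UMIs) and 0.7112% (5 of 703), and on Day 14 at 0.1947% (6 of 3082) and 0.1946% (35 of 17986). The median spot was chosen on 27, 65 and 13 score UMIs in the 3 sections. When the score was computed again from 500 UMIs drawn from each spot, 48 of the 78, 45 of the 81 and 46 of the 103 spots were chosen again. With spots chosen in that way the list of macrophage genes described below stood on the log2 scale at 0.89, 0.49 and 0.33 over the other spots, against 1.14, 0.68 and 1.02 with the rule as given.

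Each score gene was also measured in spots chosen on the other 7. In the order of the days, at least 63 of 78, 63 of 81 and 85 of 103 of those spots were members again. The values describe how the score genes vary together and are no test of the label. On Day 3 the left-out gene was higher in the chosen spots by between 1.89-fold for *C1qa* and 7.06-fold for *Cd68*, a lysosomal membrane protein of macrophages. On Day 7 the ratios ran from 1.65 for *C1qa* to 2.72 for *Tyrobp*, a signalling adaptor of myeloid cells. On Day 14 they ran from 1.72 for *Cd68* (interval 1.05 to 2.72) to 3.22 for *Lyz2*. *Lyz2* gave 36.6%, 40.7% and 35.4% of the score UMIs of the macrophage-rich spots on Days 3, 7 and 14. Neutrophils share *Lyz2*, *Tyrobp* and *Fcer1g*, and the neutrophil list is therefore given beside the results below.

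**Figure D1:**
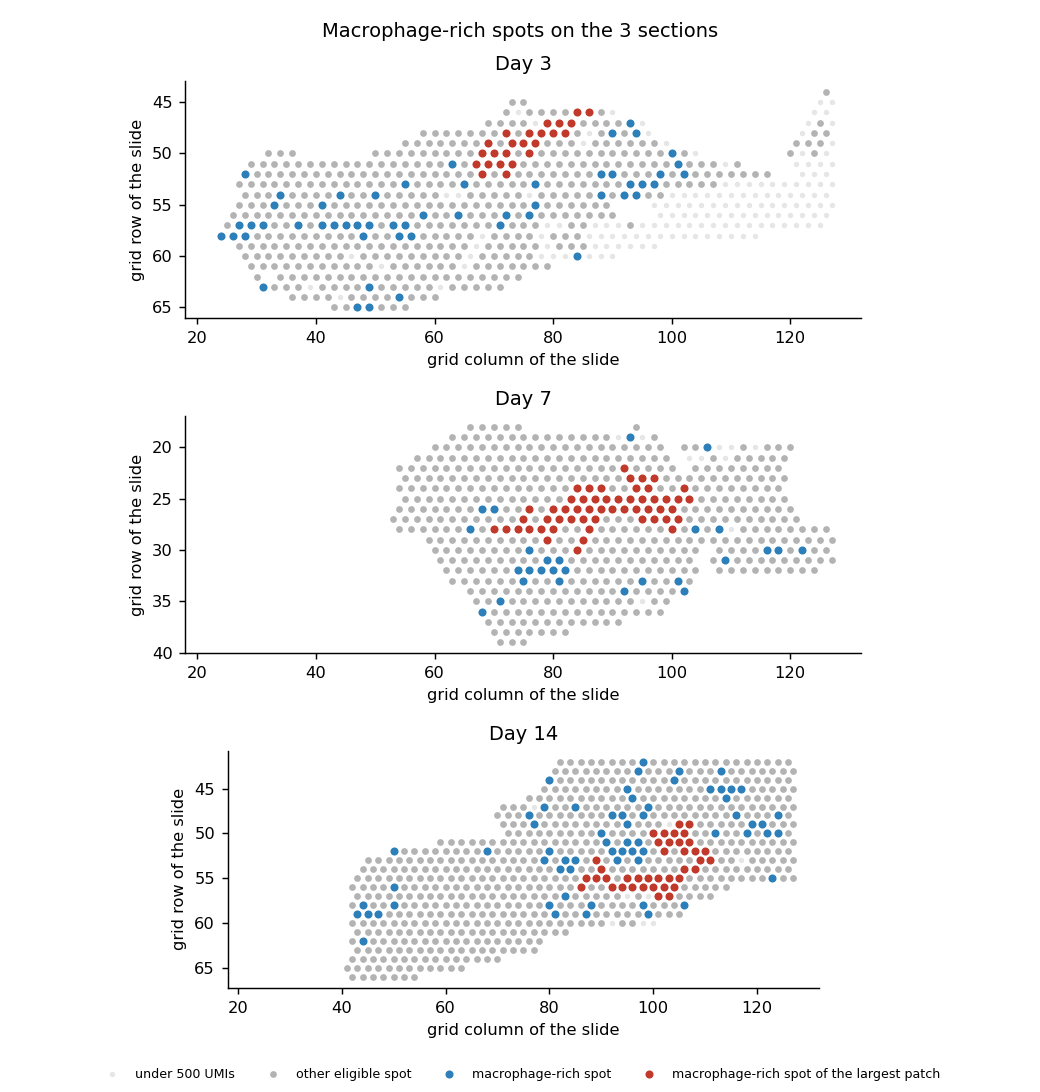
Position of the macrophage-rich spots in the 3 sections, by array column and row (grid steps), one panel per day. Grey points are other eligible spots, coloured points are macrophage-rich spots, and red points are the largest patch of touching macrophage-rich spots, which held 24, 54 and 39 spots in the order of the days.

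The macrophage-rich spots lay in patches. Around a macrophage-rich spot, 33.2% of the adjacent eligible spots were macrophage-rich on Day 3, 50.3% on Day 7 and 36.4% on Day 14, against 12.4%, 9.40% and 11.6% around the other spots. They formed 29, 17 and 31 patches on Days 3, 7 and 14. The largest patch held 24, 54 and 39 spots, whereas the next in size held 6, 9 and 10, and 17, 12 and 15 spots stood alone. The map of the sections shows 1 dominant patch per section with small patches scattered through the rest of the tissue. Spots of the largest patch were RNA-rich, with a median of 7366 UMIs on Day 3 against 1721 in the other macrophage-rich spots, 14958 against 3894 on Day 7 and 7309 against 3927 on Day 14. They supplied 63.6%, 82.8% and 51.4% of the pooled UMIs of the macrophage-rich spots, so that pooled values lean towards them.

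Expression is given below as CPM, the UMIs of a gene per 1000000 UMIs of the pooled spots, and a gene was called higher at a ratio of 2 or more and lower at 0.5 or less. Genes with fewer than 50 UMIs over the eligible spots were not called, and the 8 score genes were left out. On Day 3, 360 of 5629 genes (6.40%) were called higher in macrophage-rich spots and 540 (9.59%) lower. On Day 7, 134 of 9414 (1.42%) were called higher and 624 (6.63%) lower, and on Day 14, 376 of 10021 (3.75%) were called higher and 590 (5.89%) lower. These percentages are the background against which the gene lists below were read. Because the score is a share of the spot's total, RNA that fills a spot, such as that of muscle or keratinocytes, lowers its score, and the genes called lower are tied to the choice of spots in this way. In pooled spots, fewer cells of a type and less RNA per cell cannot be told apart.

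Of 5514 genes tested in every section, 18 were called higher in macrophage-rich spots on all 3 days. They were *Alox5ap*, *Apbb1ip*, *C3ar1*, *Ccl6*, *Ccl9*, *Eno1*, *Fcgr3*, *Ftl1*, *Lat2*, *Lst1*, *Ly86*, *Ms4a7*, *Nfam1*, *Pf4*, *Ptpn18*, *Timp1*, *Trem2* and *Wfdc17*. *Trem2*, a lipid-sensing receptor of macrophages, stood at 178 CPM in macrophage-rich spots against 52.4 in the others on Day 3 (ratio 3.40, interval 2.38 to 4.84). It stood at 207 against 84.8 CPM on Day 7 (2.44) and 37.6 against 10.7 on Day 14 (3.52). *Ly86*, which encodes the MD-1 partner of a Toll-like receptor homologue, gave ratios of 3.95, 3.00 and 3.87. *Wfdc17*, a secreted protein of activated macrophages, gave 3.00, 2.81 and 3.23. *Ccl6*, a chemokine of myeloid cells, stood at 1113 against 307 CPM on Day 3 (3.62), 202 against 56.1 on Day 7 (3.60) and 80.3 against 31.3 on Day 14 (2.56). The level of *Ccl6* in the spots on Day 14 was 0.0721 of that on Day 3, while its ratio to the surrounding tissue stayed above 2 in every section. *C3ar1*, the receptor for the complement fragment C3a, gave 4.60, 2.31 and 5.86, and *Fcgr3*, a receptor for the constant part of IgG, gave 2.13, 2.26 and 2.05. *Ftl1*, the ferritin light chain that stores iron, stood at 2641 against 933 CPM, 3252 against 1042 and 839 against 348, but it and *Eno1* have near-identical copies in the genome among which the counting could split reads. A further 37 genes were called lower on all 3 days, among them the epidermal genes *Lor*, *Krt1* and *Krt10*. The list of 18 turned on how spots were chosen. Without the largest patch of each section 5 of the 18 were still called on all days, namely *Ccl6*, *Ccl9*, *Ly86*, *Nfam1* and *Pf4*, while *Eno1* and *Timp1* were at −2.28 and −0.33 on the log2 scale on Day 3. With spots chosen on 500 UMIs each, *Ly86* alone was called on all days, and without neutrophil-rich spots 11 of the 18 were.

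The promoters of 4 of these genes, those with the highest least ratio over the 3 sections, are shown because the genes were shared by the macrophage-rich spots of all days. Each run covers the 200 bases before the gene's start in RefSeq (build GRCm38.p6), 5′ to 3′ on the strand of the gene. Capitals mark GAGGAA or its reverse complement TTCCTC, the core of sites bound by PU.1 (*Spi1*), the transcription factor that sets macrophage identity. The regions are *Ly86*, chr13:37345145-37345344 (plus strand), *Wfdc17*, chr11:83703856-83704055 (plus), *Ccl6*, chr11:83593088-83593287 (minus), and *Trem2*, chr17:48346201-48346400 (plus).
Ly86: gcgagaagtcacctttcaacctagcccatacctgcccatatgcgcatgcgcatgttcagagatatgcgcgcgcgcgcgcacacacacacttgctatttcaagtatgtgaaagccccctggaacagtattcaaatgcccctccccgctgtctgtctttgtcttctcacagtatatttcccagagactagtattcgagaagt
Wfdc17: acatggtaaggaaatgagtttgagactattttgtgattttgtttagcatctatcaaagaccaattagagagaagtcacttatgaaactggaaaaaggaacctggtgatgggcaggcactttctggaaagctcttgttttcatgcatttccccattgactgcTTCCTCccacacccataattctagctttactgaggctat
Ccl6: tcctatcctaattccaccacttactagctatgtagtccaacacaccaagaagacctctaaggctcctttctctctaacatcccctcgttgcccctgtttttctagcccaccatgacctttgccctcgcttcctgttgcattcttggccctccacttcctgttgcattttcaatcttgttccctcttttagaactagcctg
Trem2: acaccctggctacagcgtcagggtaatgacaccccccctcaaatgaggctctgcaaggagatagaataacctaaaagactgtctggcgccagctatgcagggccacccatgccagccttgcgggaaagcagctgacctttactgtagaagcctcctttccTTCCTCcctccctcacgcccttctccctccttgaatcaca
Over 250 bases before the start, GAGGAA on either strand was present in 4 of the 15 shared genes with a promoter entry (26.7%) and in 25.9% of all 27025 promoters searched. The shared genes thus held this motif about as often as any promoter, and none of the 15 held CACGTG, the site of lysosomal regulators of the TFEB family, which 6.86% of all promoters held.

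**Figure D2:**
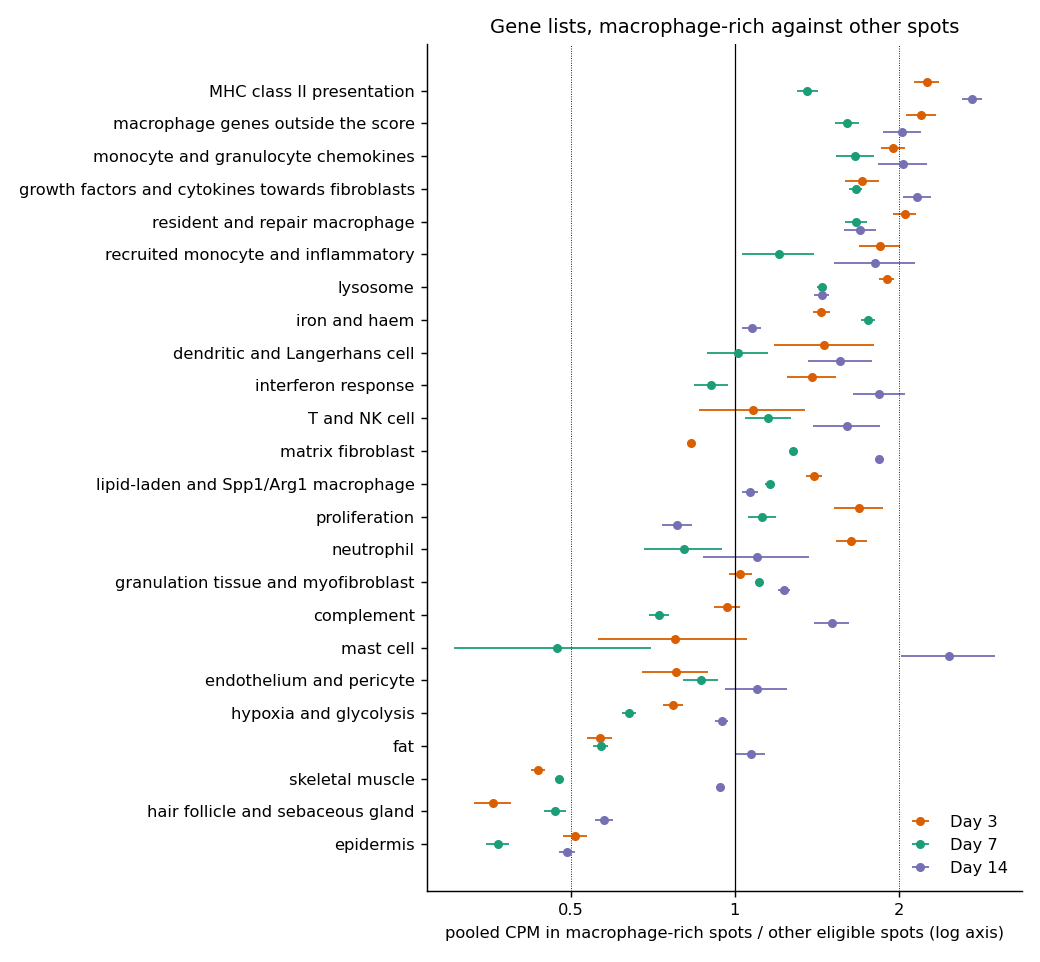
Ratio of pooled CPM in macrophage-rich spots over the other eligible spots for each gene list (log2 scale), by day, with exact 95% intervals that cover counting error only. Macrophage genes outside the score stood at 2.20 on Day 3, 1.61 on Day 7 and 2.03 on Day 14, and the epidermis list at 0.509, 0.367 and 0.492.

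Macrophage genes outside the score were higher in the spots on all 3 days. As a list they stood at 4488 against 2039 CPM on Day 3 (ratio 2.20, interval 2.07 to 2.34), 2144 against 1334 on Day 7 (1.61, 1.53 to 1.69) and 1339 against 660 on Day 14 (2.03, 1.87 to 2.20). Of the genes tested, 11 of 15 were called higher on Day 3, 4 of 15 on Day 7 and 8 of 13 on Day 14, with a median gene ratio of 2.25, 1.65 and 2.63. *Csf1r*, the receptor for the growth factor CSF1, stood at 406 against 184 CPM (2.21), 168 against 96.4 (1.75) and 135 against 71.8 (1.88). *Adgre1*, which encodes F4/80, gave 2.48, 1.38 and 1.54 (−0.42 on the log2 scale on Day 14 without the largest patch), and *Mpeg1*, a pore-forming protein of phagocytes, gave 3.02, 1.76 and 2.63. *Fcgr1*, the high-affinity receptor for IgG, stood at 105 against 21.2 CPM on Day 3 (4.95). Per spot the list made up more than the median of the other spots in 73 of 78 members on Day 3, 70 of 81 on Day 7 and 81 of 103 on Day 14, although the ranges of both groups overlapped.

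Genes of recruited monocytes and inflammation had their highest level on Day 3, in the macrophage-rich and in the other spots alike. Against the other spots the list was about as high on Day 14 as on Day 3, with median gene ratios of 1.78, 1.01 and 2.33 on Days 3, 7 and 14. The list stood at 2223 against 1205 CPM on Day 3 (ratio 1.85), with 3 of 7 tested genes called higher, 236 against 196 on Day 7 (1.20), with 0 of 5, and 292 against 162 on Day 14 (1.81), with 3 of 5 higher and *Il1rn* lower. *Ccr2*, the receptor that guides monocytes out of the blood, stood at 260 against 124 CPM on Day 3 (2.10), 62.2 against 44.2 on Day 7 (1.41) and 70.0 against 30.1 on Day 14 (2.33). *Plac8*, a gene of inflammatory monocytes, gave 2.18, 1.68 and 3.07, and −0.31 on the log2 scale on Day 7 without the largest patch. *Il1b*, an inflammatory cytokine, stood at 362 against 235 CPM on Day 3, a ratio of 1.54 that was not called. *Thbs1*, also called higher on Day 3, was at −0.35 on the log2 scale without the largest patch of that section. *Clec4d* and *Mmp9*, which belong to the neutrophil list and not to this one, gave 2.62 and 2.93 on Day 3.

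Neutrophil genes were present in the Day 3 macrophage-rich spots. The neutrophil list stood at 3667 against 2241 CPM (ratio 1.64). Of its 11 tested genes 3 were called higher, among them *Clec4d* and *Mmp9*, and *Ly6g*, which defines the cell type, was at 0 UMIs. *S100a8*, a calcium-binding protein of neutrophils, stood at 973 against 533 CPM (1.83). On Day 7 the list stood at 185 against 229 CPM (0.806) and on Day 14 at 161 against 146 (1.10). Of the Day 3 members, 17.9% were also among the 15% of spots richest in the neutrophil list. With all neutrophil-rich spots of the section left out, 354 genes were still called higher in the Day 3 macrophage-rich spots and 527 lower. The log2 ratios were then 2.58 for *Hmox1*, 2.69 for *Arg1*, 2.87 for *Pf4* and 1.06 for the inflammatory list, as large as with them.

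Genes of resident and repair macrophages stood at 6892 against 3360 CPM on Day 3 (ratio 2.05), 2532 against 1515 on Day 7 (1.67) and 1771 against 1043 on Day 14 (1.70), with 6 of 15, 4 of 13 and 7 of 13 tested genes called higher. *Pf4*, a chemokine found in platelets and in macrophages, was highest of all genes by the bound of its interval on Day 3, at 1627 against 240 CPM (6.78, 5.91 to 7.78). It stood at 213 against 85.1 on Day 7 (2.50) and 82.0 against 34.8 on Day 14 (2.36). *Mrc1*, the mannose receptor CD206, gave 2.15, 1.68 and 2.03. *Selenop*, a secreted selenium carrier, gave 1.55, 2.33 and 2.20, and *Igf1*, a growth factor, gave 1.07, 1.77 and 2.38. *Ccl8*, a chemokine of resident macrophages, gave 1.38, 1.21 and 2.62. *Pf4* and *Mrc1* therefore had their highest ratio on Day 3, whereas *Igf1* and *Ccl8* had theirs on Day 14. Outside the largest patch of Day 3, *Ccl8* was at 1.37 on the log2 scale there.

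Lipid-handling and *Spp1*/*Arg1* macrophage genes differed among themselves. *Arg1*, the arginine-consuming enzyme of alternatively activated macrophages, stood at 327 against 65.2 CPM on Day 3 (ratio 5.02, interval 3.78 to 6.69) and at 11.0 against 9.88 on Day 7, with 11 UMIs in the spots. *Mmp12*, the macrophage elastase, stood at 84.7 against 12.04 CPM on Day 3, 73.2 against 34.0 on Day 7 (2.15) and 46.1 against 14.4 on Day 14 (3.20). *Spp1*, which encodes osteopontin, gave 1.52, 1.96 and 1.03, and *Gpnmb*, a lysosomal glycoprotein of lipid-laden cells, gave 1.18, 1.52 and 1.19. *Apoe*, an apolipoprotein, stood at 8037 against 3823 CPM (2.10), 6550 against 4208 (1.56) and 3370 against 2620 (1.29). *Fabp4*, the fatty acid carrier of adipocytes and some macrophages, was at 0.584, 0.573 and 1.03. The list as a whole gave 1.40, 1.16 and 1.07, with 3, 2 and 2 of 14 tested genes called higher.

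Lysosomal genes, which serve digestion of engulfed material, stood at 18546 against 9755 CPM on Day 3 (ratio 1.90), with 8 of 17 tested genes called higher. They stood at 1.45 on both later days, with 0 and 1 of 17 called. *Ctsl*, a cysteine protease, gave 2.57, 1.58 and 1.10, and *Psap*, the precursor of the saposins, gave 2.18, 1.64 and 1.81. Among iron and haem genes, *Hmox1*, the enzyme that breaks down haem, stood at 847 against 155 CPM on Day 3 (5.46, 4.57 to 6.54), 88.2 against 51.1 on Day 7 (1.73) and 22.2 against 32.8 on Day 14 (0.677). Haemoglobin transcripts did not share this contrast, since *Hba-a2* was at 1581 against 1527 CPM on Day 3. The summed iron and haem list gave 1.44, 1.76 and 1.08, although on Day 14 its median gene ratio was 0.813. The Day 3 value was −0.28 on the log2 scale without the largest patch, below the rest of the section, and *Ctsl* was at 0.32. Of the 14 glycolysis and hypoxia genes, 13 were tested each day, and *Eno1* alone was called higher, on each day.

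**Figure D3:**
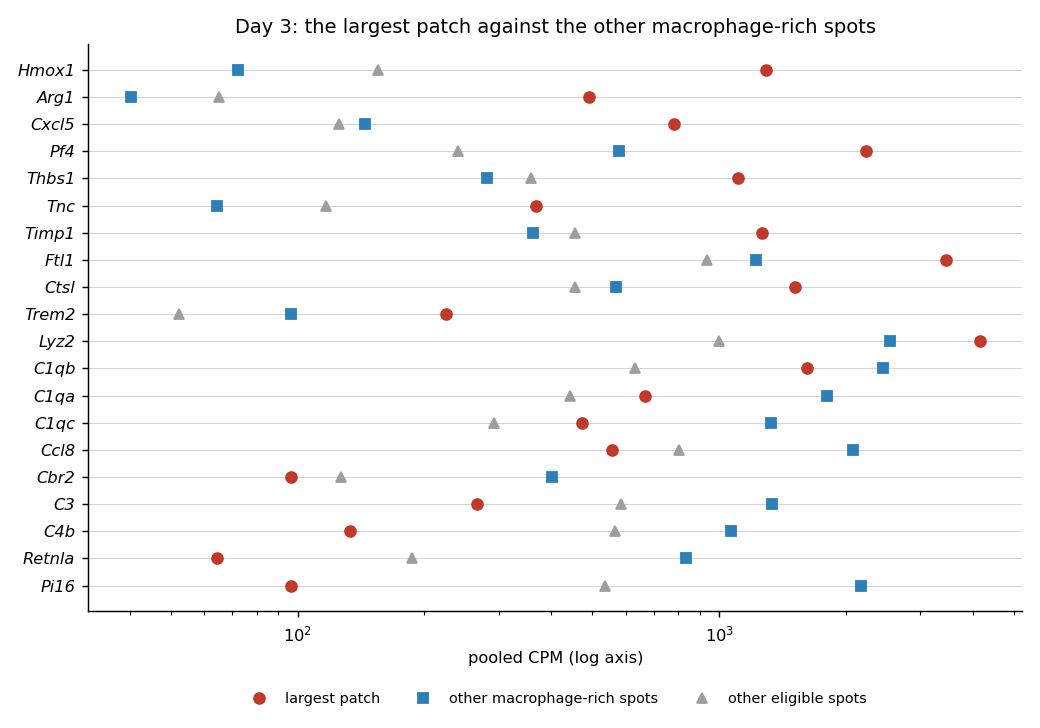
Pooled CPM (log scale) of selected genes on Day 3 in the largest patch of 24 macrophage-rich spots, the other 54 macrophage-rich spots and the 442 other eligible spots. *Hmox1* stood at 1290, 72.3 and 155 CPM, while *Retnla* stood at 64.3, 835 and 187.

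The largest patch of Day 3 differed from the other macrophage-rich spots of that section, and *Hmox1*, *Arg1* and *Cxcl5* were high in the patch alone. *Hmox1* stood at 1290 CPM (281 UMIs) in the largest patch of 24 spots, at 72.3 CPM (9 UMIs) in the other 54 macrophage-rich spots and at 155 CPM in the rest of the section. *Arg1* stood at 491, 40.2 and 65.2 CPM in the same order, and *Cxcl5*, a neutrophil-attracting chemokine, at 781, 145 and 125. Without the largest patch the Day 3 ratio of macrophage-rich over other spots was therefore −1.10 on the log2 scale for *Hmox1*, −0.70 for *Arg1* and 0.21 for *Cxcl5*. *Pf4*, by comparison, stood at 2227, 578 and 240 CPM, above the rest of the section in both kinds of spot, and *Ccl6* at 1111, 1117 and 307 CPM. Thrombospondin 1 (*Thbs1*) stood at 1107, 281 and 358 CPM, and the protease inhibitor *Timp1* at 1263, 362 and 454, so both were also below the rest of the section outside the patch. The proliferation list was 3.06-fold higher in the patch than in the other macrophage-rich spots, and without the largest patch it lay below the rest of the section (−0.45 on the log2 scale).

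The other 54 spots were richer in C1q and in some genes of resident macrophages, and also in lists of other cell types. Fat genes stood at 8411 CPM in them against 2461 in the patch, skeletal muscle genes at 25433 against 9784, matrix fibroblast genes at 77639 against 33343 and complement genes at 8145 against 2700. The part of those cell types in the difference was not tested. *Retnla*, a secreted protein induced by interleukin 4, stood at 64.3 CPM in the Day 3 patch, 835 in the other macrophage-rich spots and 187 in the rest of the section. *Pi16*, a marker of adventitial and fascial fibroblasts, stood at 96.4, 2169 and 535 CPM, and *Ccl8* at 556, 2081 and 805. *Mrc1* was at 422 CPM in the patch and 755 in the other macrophage-rich spots, and the scavenger gene *Cbr2* at 96.4 and 402. The score genes also differed between the patch and the other spots, which is a description because they chose the spots. The 3 C1q genes gave 28.1% of the score UMIs in the patch and 57.8% elsewhere, whereas *Lyz2* gave 42.4% and 26.3%. Choosing the spots on C1q alone kept 46 of these 54 spots but 7 of the 24 in the patch. That choice drew on the same C1q counts and is no separate result. The neutrophil list was 1.35-fold higher in the patch than in the other macrophage-rich spots, and its part in this split was not tested.

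In the later sections the largest patch shared a few of these differences and not others. The C1q genes gave 34.6% of the score UMIs in the Day 7 patch and 35.4% in the other macrophage-rich spots, and 38.8% and 38.4% on Day 14. The matrix fibroblast list was 0.430, 1.20 and 1.46 in the patch over the other macrophage-rich spots on Days 3, 7 and 14, and the proliferation list was 3.06, 0.920 and 1.09. Over the members of a section, 158 of 1130 genes (14.0%) were called higher and 97 (8.58%) lower in the largest patch on Day 3. On Day 7 the counts were 196 of 3355 (5.84%) and 133 (3.96%), and on Day 14 they were 54 of 2023 (2.67%) and 47 (2.32%). Of 984 genes tested in all 3 sections, 4 were called higher in the patch each time and 8 lower. Of the 102 list genes among them, 3 were called higher in the largest patch each time, namely *Col12a1*, *Thbs2* and *Tnc*, all genes of granulation tissue matrix. *Tnc*, which encodes tenascin C, stood at 367 CPM in the patch against 64.3 in the other macrophage-rich spots on Day 3, 1490 against 572 on Day 7 and 316 against 130 on Day 14. *Thbs2*, thrombospondin 2, was 3.96-, 2.52- and 3.21-fold higher in the patch. *Postn*, which encodes periostin, was 2.46-, 1.60- and 2.50-fold higher. The list genes called lower in the patch on all 3 days were *Retnla*, *Clec3b*, *Lpl*, *Car3* and *Myh1*. *Retnla* stood at 31.5 CPM in the patch against 152 in the other macrophage-rich spots on Day 7 and at 69.7 against 418 on Day 14. *Clec3b*, which encodes tetranectin, stood at 59.7 against 763 CPM, 66.6 against 456 and 156 against 331. On Day 7 the resident macrophage gene *Folr2* was also lower in the patch (33.9 against 158 CPM), as was *Ccl6* (142 against 491).

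Antigen presentation genes stood out on Days 3 and 14. The MHC class II list, whose products show peptides to CD4 T cells, stood at 6734 against 2991 CPM on Day 3 (ratio 2.25, interval 2.14 to 2.37), 2854 against 2099 on Day 7 (1.36, 1.3 to 1.42) and 5496 against 2014 on Day 14 (2.73, 2.62 to 2.84). Of the genes tested, 5 of 6, 0 of 7 and 6 of 8 were called higher. *H2-Aa* stood at 1356 against 511 CPM, 623 against 489 and 1100 against 449. *Cd74*, the invariant chain that loads class II molecules, stood at 2527 against 1258 CPM (2.01), 850 against 538 (1.58) and 1660 against 473 (3.51). Per spot the list made up a median of 0.422%, 0.258% and 0.382% of UMIs in the macrophage-rich spots, and 63 of 78, 56 of 81 and 91 of 103 of them lay above the median of the other spots. On Day 14, 54.4% of the macrophage-rich spots were also among the 15% of spots richest in this list, against 38.5% on Day 3 and 43.2% on Day 7. With spots chosen on 500 UMIs each, the list was not past 2-fold on Day 3 (0.81 on the log2 scale) or Day 14 (0.65).

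Other immune genes accompanied class II genes on Day 14. *Ccl5*, a chemokine for T cells and monocytes, stood at 296 against 25.1 CPM (ratio 11.8, interval 9.16 to 15.2), although 1 spot held 38.2% of its UMIs, and without that spot the ratio was 7.42. *Ccr7*, the receptor that guides mature dendritic cells to lymph nodes, stood at 88.8 against 15.4 CPM (5.76, 3.91 to 8.47) on Day 14, at 18.1 against 25.9 on Day 7, and at 2 UMIs in the Day 3 members. *Fscn1*, an actin-bundling protein of mature dendritic cells, gave 1.64, 1.17 and 2.84 on Days 3, 7 and 14, and −1.15 on the log2 scale on Day 3 without the largest patch. Of the dendritic and Langerhans cell list, 0 of 3, 0 of 6 and 3 of 5 tested genes were called higher. *Cd207*, which defines Langerhans cells, was at 0, 1 and 1 UMIs in the members of the 3 days. The T and NK cell list stood at 415 against 258 CPM on Day 14 (1.61, median gene ratio 1.21), with 0 of 6 tested genes called higher. It stood at 1.08 and 1.15 on Days 3 and 7, with a median gene ratio of 0.816 on Day 7. In the members of Days 3, 7 and 14, *Thy1* alone gave 78 of the 102, 503 of the 549 and 154 of the 243 UMIs of this list. Interferon response genes gave 1.39, 0.905 (with a median gene ratio of 1.08) and 1.84, and *Bst2*, an antiviral membrane protein, gave 2.03, 1.83 and 3.93. With spots chosen on 500 UMIs each, the Day 14 log2 ratio was 1.19 for *Ccl5*, 0.55 for *Ccr7* and 0.63 for *Bst2*.

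Mast cell genes were at opposite sides of 1 in the later sections. The list stood at 28.1 against 59.5 CPM on Day 7 (ratio 0.471, interval 0.306 to 0.702) and at 234 against 94.7 on Day 14 (2.47, 2.02 to 3.01), with 0.776 on Day 3 (0.15 on the log2 scale without the largest patch). *Hdc*, which also stands in the neutrophil list, gave 37 of the 50 list UMIs in the Day 3 members. It gave 1 of 28 on Day 7 and 0 of 137 on Day 14. *Cpa3*, a mast cell protease, had 1 UMI in the members of each of Days 3 and 7 and 25 on Day 14, where it stood at 42.7 against 13.7 CPM (3.12). *Mcpt4*, a mast cell chymase, gave 0.419, 0.499 and 2.33, and *Cma1* gave 3.71 on Day 14. Of the Day 14 macrophage-rich spots, 30.1% were also among the 15% richest in the mast cell list, against 14.1% and 8.64% on Days 3 and 7. The Day 14 list ratio was 0.54 on the log2 scale with spots chosen on 500 UMIs each and 0.98 without the largest patch.

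Chemokine genes were higher in the spots on each day. The chemokine list stood at 6419 against 3288 CPM on Day 3 (ratio 1.95), 918 against 551 on Day 7 (1.67) and 811 against 398 on Day 14 (2.04), with 7 of 14, 2 of 10 and 6 of 10 tested genes called higher. *Ccl9* was called higher on each day (4.08, 2.91 and 2.07). *Ccl2* and *Ccl7*, both ligands of CCR2, stood at 263 against 106 CPM (2.48) and 380 against 148 (2.57) on Day 3. *Cxcl2*, which attracts neutrophils, stood at 780 against 625 CPM on Day 3 (1.25), and was found in 84.6% of the macrophage-rich and 63.8% of the other spots. *Cxcl16*, a membrane-bound chemokine, gave 3.92, 1.20 and 2.67. Without the largest patch of Day 3, *Cxcl16* was at 0.74 and *Ccl2* at 0.36 on the log2 scale there, and *Cxcl16* was at −0.55 on Day 7 without the patch of that section. On Day 14 the list was at 0.37 on the log2 scale with spots chosen on 500 UMIs each.

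Complement genes differed among themselves. Among receptors and regulators, *C3ar1* was called higher on all days, *C5ar1*, the receptor for C5a, on Days 3 and 14 (2.19 and 2.95, with 1.503 on Day 7), and properdin (*Cfp*) on Day 3 (555 against 168 CPM, 3.31). The components *C3* and *C4b*, made largely by fibroblasts and epithelium, gave 1.12 and 0.834 on Day 3, 0.527 and 1.08 on Day 7 and 1.56 and 1.44 on Day 14. *Serping1*, the inhibitor of C1, gave 0.693, 1.73 and 1.87. On Day 14, 6 of 12 genes were called higher, including *C1ra* (2.07), *C1s1* (2.12), *C2* (2.45) and *Cfb* (3.24). The summed list stood at 0.967, 0.726 and 1.51, whereas the median gene ratio was 1.15, 1.41 and 1.97. The summed list was at 0.75 on the log2 scale on Day 3 and at 0.01 on Day 7 without the largest patch, and on Day 3 *C3*, *C4b* and *Cfd* were at 1.19, 0.91 and 0.41. *Cfd*, the adipocyte protease with the most UMIs in the list, gave 0.659, 0.544 and 1.12. The Day 14 ratio of *C5ar1* was −0.09 on the log2 scale with spots chosen on 500 UMIs each, whereas *C2* and *Cfb* stayed past 2-fold at 1.10 and 1.07.

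In pooled CPM, the matrix fibroblast and granulation tissue lists had their highest ratio to the rest of the section on Day 14. Matrix fibroblast genes stood at 49453 against 59382 CPM on Day 3 (ratio 0.833), 96648 against 75427 on Day 7 (1.28) and 68585 against 37206 on Day 14 (1.84), with 0, 0 and 4 of 12 genes called higher. The Day 3 direction rested on the largest patch, since without it the list was at 0.39 on the log2 scale, and 60 of 78 macrophage-rich spots lay above the median of the other spots (median 3.96% against 3.07% of UMIs). *Col3a1*, a collagen of early granulation tissue, stood at 6620 against 5902 CPM, 18808 against 12373 and 9089 against 3880. *Postn* stood at 356 against 212 CPM (1.68), 5539 against 3159 (1.75) and 1332 against 437 (3.05). The summed granulation tissue list gave 1.025, 1.11 and 1.23 on Days 3, 7 and 14, with a median gene ratio of 1.68, 1.365 and 2.002. Of granulation tissue genes, 5 of 13, 1 of 14 and 8 of 14 were called higher and 2 were called lower on Day 3. *Fn1*, fibronectin, gave 1.77, 1.499 and 2.56, *Cthrc1*, a secreted protein of wound fibroblasts, gave 2.24, 1.34 and 2.83, and *Itgbl1*, an integrin beta-like secreted protein, gave 0.750, 1.39 and 2.002. *Mmp14*, a membrane-bound collagenase, gave 1.67, 2.14 and 4.03. Of the macrophage-rich spots, 10.3%, 50.6% and 46.6% on Days 3, 7 and 14 were also among the 15% richest in matrix fibroblast genes. For the granulation tissue list these shares were 3.85%, 28.4% and 11.65%, highest on Day 7. Among factors that act on fibroblasts, *Tgfb1* gave 1.82, 1.20 and 1.69 and *Tgfb3* gave 1.58 on Day 7 and 2.14 on Day 14. The Day 14 *Postn* ratio was 0.82 on the log2 scale with spots chosen on 500 UMIs each and 0.79 without the largest patch. Without that patch *Postn* was at −0.20 on Day 3, *Itgbl1* at 0.42 on Day 3 and −0.48 on Day 7, *Tgfb1* at −0.25 on Day 7 and −0.61 on Day 14, and *Tgfb3* at −0.87 on Day 7.

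Pooled epidermal genes on all 3 days, pooled hair genes on Days 3 and 7 and pooled muscle genes on Days 3 and 7 stood near or below 0.5 of their level in the other spots. Epidermal genes stood at 5230 against 10272 CPM on Day 3 (ratio 0.509), 1910 against 5202 on Day 7 (0.367) and 6198 against 12603 on Day 14 (0.492), with 8, 12 and 3 of 12 genes called lower. Hair follicle and sebaceous gland genes gave 0.360, 0.469 and 0.576. *Scd1*, a desaturase abundant in sebaceous glands, stood at 1014 against 3170 CPM on Day 3. Skeletal muscle genes gave 0.435 with 11 of 12 genes called lower on Day 3, 0.475 with 10 of 11 on Day 7, and 0.939 with 0 of 12 on Day 14. The fat list gave 0.566, 0.568 and 1.07. The muscle list was thus past 2-fold on Days 3 and 7 and not on Day 14, and the fat list was past 2-fold on no day. With the largest patch left out, the muscle list stood on the log2 scale at −0.48 on Day 3 and −0.26 on Day 7, and the fat list at 0.04 and −0.17. Pooled and per-spot values of the epidermal list differed on Day 3, where 44 of 78 macrophage-rich spots lay above the median of the other spots (median 0.420% against 0.377% of UMIs) and the highest other spot held 8.22%. Endothelial and pericyte genes gave 0.779, 0.866 and 1.10.

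Muscle genes were among those with the highest Day 14 ratios. *Myh8* and *Myl4*, muscle genes of development and regeneration, gave 5.73 and 4.65, and 4.48 and 3.38 without their highest spot. *Myl4* stood at 233 CPM in the largest Day 14 patch and at 10.5 in the other macrophage-rich spots. On Day 7 the highest ratios were of *Ftl1*, *Ccl6*, *Rpl35*, *Wfdc17*, *Rpl41*, *Ccl9*, *Gstp1*, *Selenop*, *Cd84* and *Sfrp2*, of which *Ftl1*, *Rpl35*, *Rpl41* and *Gstp1* have near-identical copies and are uncertain.

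**Figure D4:**
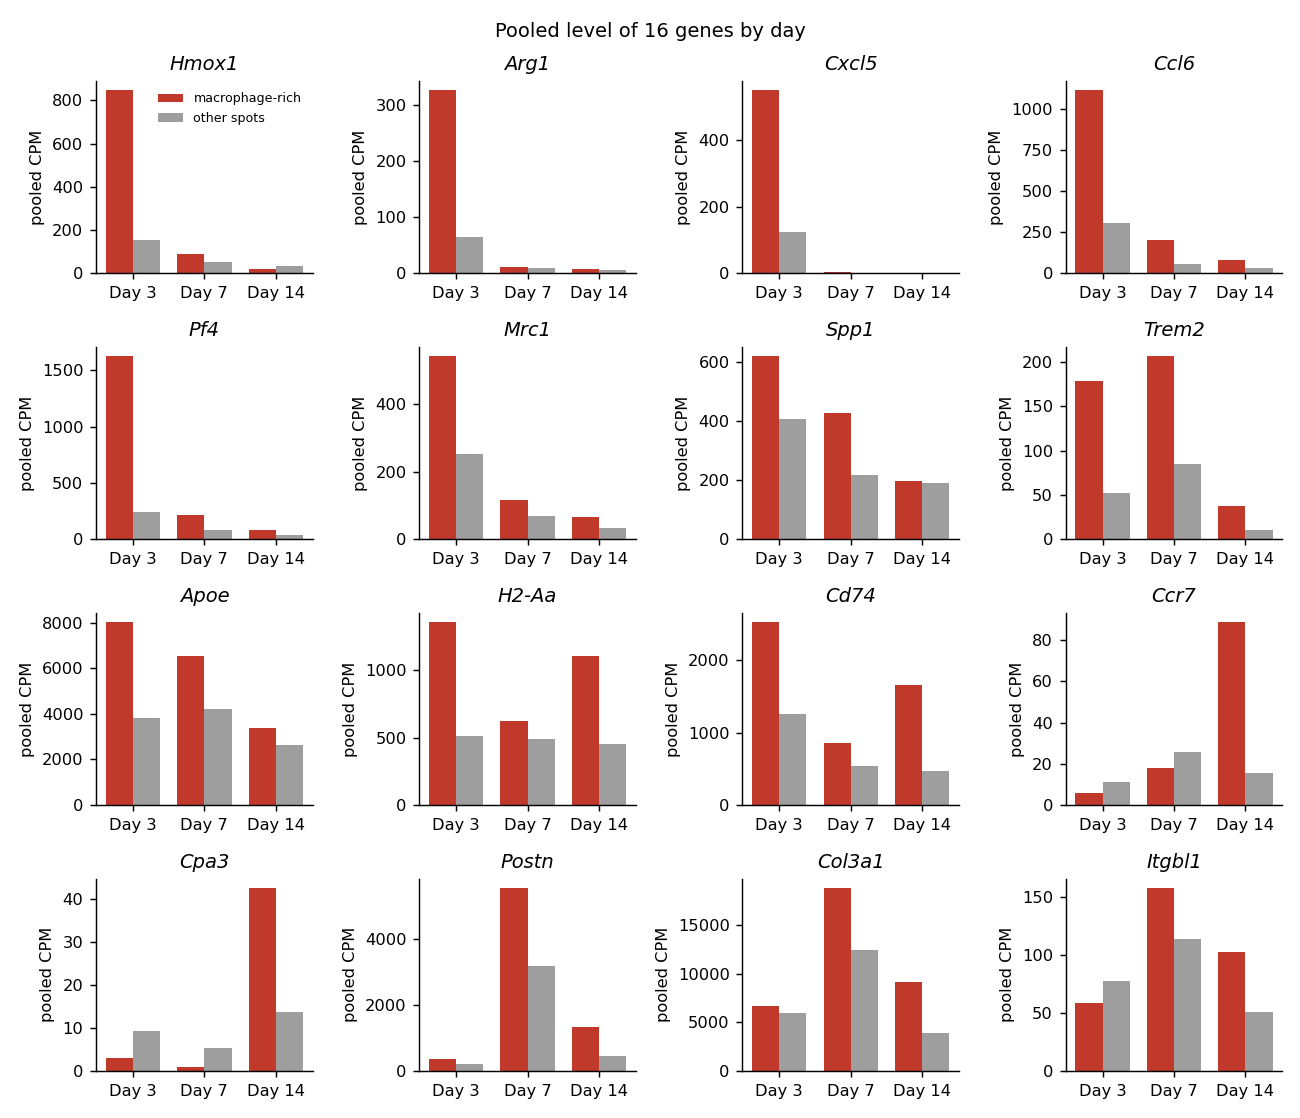
Pooled CPM of 16 genes (linear axes from 0, 1 panel per gene) on Days 3, 7 and 14, with bars for the macrophage-rich spots and for the other eligible spots of each of the 3 sections. *Pf4* in macrophage-rich spots stood at 1627, 213 and 82.0 CPM, and *Cd74* at 2527, 850 and 1660.

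The macrophage-rich spots were next compared between days, with the other spots of the same sections given beside them. The 3 comparisons share sections and are not independent. Between Days 3 and 7, 450 of 4556 genes (9.88%) were called higher and 450 (9.88%) lower on Day 7. Between Days 7 and 14, 458 of 5322 (8.61%) were called higher and 397 (7.46%) lower on Day 14, and between Days 3 and 14, 395 of 3431 (11.5%) were called higher and 396 (11.5%) lower on Day 14. These splits depend on the scale. Set per UMI of the 8 score genes, 1896 genes were called higher and 124 lower on Day 7 than on Day 3, 2052 and 52 on Day 14 than on Day 7, and 2737 and 50 on Day 14 than on Day 3. Genes called lower on Day 7 than on Day 3 were led by inflammatory genes. *Cxcl2* had 267 UMIs in the Day 3 spots and 0 on Days 7 and 14, at least 259-fold and 152-fold lower against a floor of 3 UMIs in the later pool. *Saa3*, an acute phase protein, stood at 1230, 8.02 and 11.96 CPM on Days 3, 7 and 14, *S100a8* at 973, 14.0 and 13.7, and *Il1b* at 362, 7.02 and 11.96. *Arg1* stood at 327, 11.0 and 8.54 CPM and *Hmox1* at 847, 88.2 and 22.2. In the other spots *Cxcl2*, *S100a8* and *Saa3* were likewise lower on Day 7, with ratios of 0.000465, 0.0245 and 0.0207, so the difference was not particular to the macrophage-rich spots. *Arg1* had a Day 7 over Day 3 ratio of 0.0337 in the macrophage-rich spots and 0.152 in the others, and *Hmox1* had a Day 14 over Day 3 ratio of 0.0262 and 0.212.

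Macrophage genes outside the score were lower in the later sections, in the macrophage-rich and in the other spots alike. In the other spots the list stood at 0.654 on Day 7 over Day 3, 0.495 on Day 14 over Day 7 and 0.324 on Day 14 over Day 3. In the macrophage-rich spots it stood at 0.478 on Day 7 over Day 3 (9 of 15 tested genes called lower), 0.625 on Day 14 over Day 7 (3 of 12) and 0.298 on Day 14 over Day 3 (12 of 14). Set per UMI of the 8 score genes, which the rule used, the same ratios were 0.860, 1.10 and 0.943. That scale multiplies every list of a comparison by 1 constant, so it sets no list further from another. In CPM, the Day 7 over Day 3 ratio was 0.143 for the chemokine list, 0.106 for the inflammatory list and 0.0503 for the neutrophil list. It was 0.747 for the lysosome list and 0.896 for the lipid-handling list. The other spots gave 0.168, 0.163, 0.102, 0.982 and 1.08 in the same order. *Trem2* stood at 178, 207 and 37.6 CPM on Days 3, 7 and 14 and *Psap* at 3109, 3055 and 1822, so the level of both was close on Days 3 and 7, whereas *Pf4*, *Ccl6* and *Mrc1* were 0.131, 0.181 and 0.212 of their Day 3 level on Day 7.

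Between Days 7 and 14 the class II genes were higher in the spots, while the rest of the tissue stood near 1. The MHC class II list was at 1.93 (interval 1.83 to 2.03) in the macrophage-rich spots, with 3 of 6 tested genes called higher, and at 0.960 in the other spots. Without the largest patches the list was at 0.39 on the log2 scale, below the 1.93-fold of all spots. *H2-Eb1* stood at 545 CPM on Day 7 and 1134 on Day 14 (2.08). *Ccl5* was 10.9-fold and *Ccr7* 4.92-fold higher on Day 14 than on Day 7, and with spots chosen on 500 UMIs each they were at 2.03 and 0.15 on the log2 scale. *Retnla* stood at 345, 52.1 and 239 CPM on Days 3, 7 and 14, so the lowest of these levels was on Day 7. The mast cell list was 8.34-fold higher on Day 14 than on Day 7 in the spots and 1.59-fold higher elsewhere, and *Mcpt4* was 7.47-fold higher in the spots. Over the same interval *Trem2* was 0.182, *Ftl1* 0.258 and *Lgmn*, a lysosomal protease, 0.280 of the Day 7 level.

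The whole Day 7 section, macrophage-rich spots included, was rich in granulation tissue genes. The granulation tissue list was at 2.96 on Day 7 over Day 3 in the macrophage-rich spots and at 2.73 elsewhere. *Postn* was 15.5-fold higher on Day 7 than on Day 3 (interval 12.99 to 18.8) and 0.240 of the Day 7 level on Day 14, against 14.9 and 0.138 in the other spots. *Tnc* stood at 257, 1332 and 225 CPM, *Tnn*, tenascin N, at 8.77 (3 UMIs), 340 and 35.9, and *Prss35*, a secreted protease-like protein, had 1 UMI on Day 3 and 313 on Day 7. In the other spots *Tnn* was at 6 and 1077 UMIs and *Prss35* at 1 and 879 UMIs on Days 3 and 7. The imprinted transcripts *H19* and *Mest* were high on Day 7, *H19* at 55.5, 1012 and 214 CPM, and *Mest* at 465 CPM on Day 7 and 25.6 on Day 14. The matrix fibroblast list was at 1.95 on Day 7 over Day 3 in the macrophage-rich spots and 1.27 elsewhere, and on Day 14 over Day 3 at 1.39 and 0.627. Without the largest patches the last comparison was at −0.48 on the log2 scale in the macrophage-rich spots. The Day 7 over Day 3 value also leaned on these patches. Outside them the list stood at 77639 CPM on Day 3 and 82900 on Day 7, against 49453 and 96648 in all macrophage-rich spots. The genes with the highest Day 14 ratios over the earlier days were those of growing hair, such as *Krt71* (482 UMIs on Day 14 and 0 on Day 7, at least 274-fold higher). *Krt71* UMIs were found in 87.4% of the Day 14 macrophage-rich spots and 87.5% of the other spots, and their level was 823 against 1588 CPM. Hair transcripts thus lay in nearly every spot of that section and were not a property of the macrophage-rich ones.

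**Figure D5:**
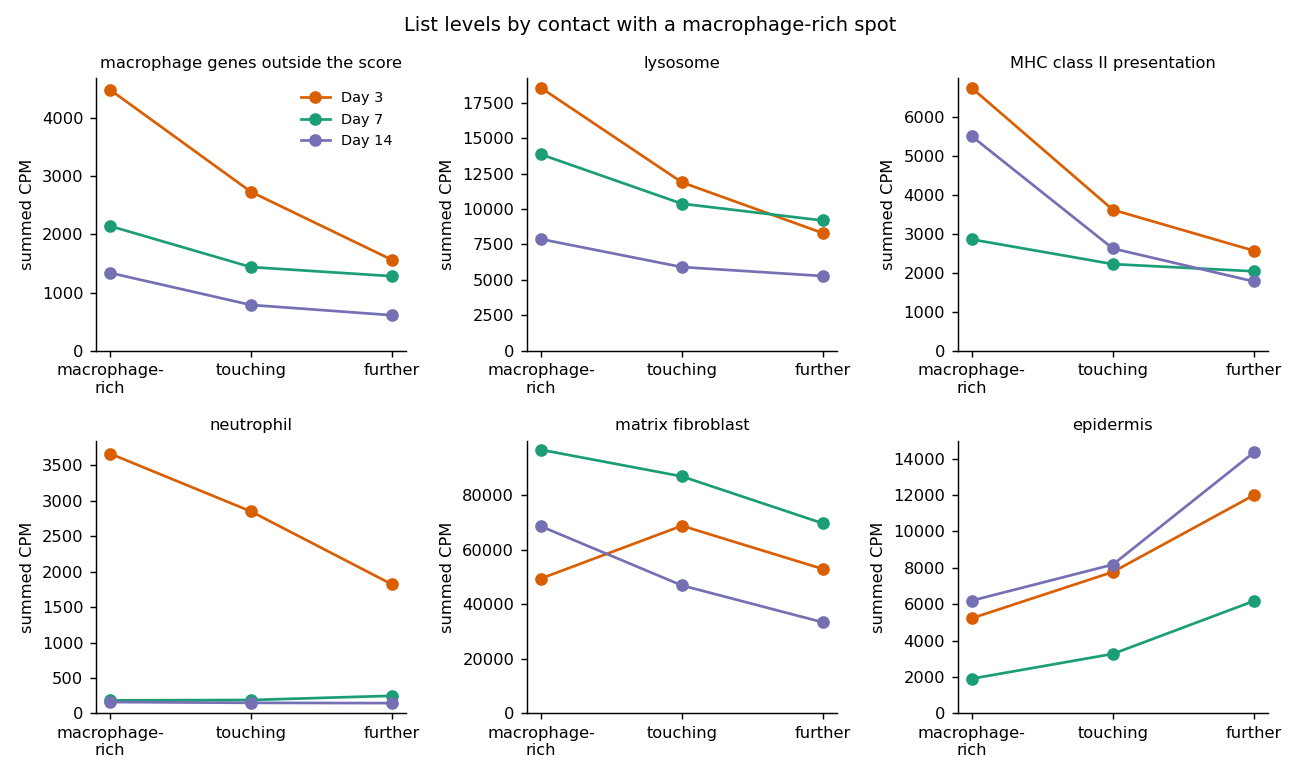
Summed CPM of gene lists (linear axes from 0, 1 panel per list) in macrophage-rich spots, in other eligible spots touching one, and in the remaining eligible spots, with 1 line per day. On Day 3 the macrophage genes outside the score stood at 4488, 2732 and 1563 CPM in this order.

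The macrophage list outside the score graded into the adjoining tissue on Day 3 more than on the later days. The macrophage genes outside the score stood on Day 3 at 4488 CPM in the macrophage-rich spots, 2732 in the 189 spots touching them and 1563 in the 253 spots further away, a ratio of touching over further spots of 1.75. On Day 7 that ratio was 1.12, with 140 touching and 318 further spots, and on Day 14 it was 1.29, with 225 and 361. The MHC class II list gave 1.41, 1.09 and 1.48, and the matrix fibroblast list gave 1.3, 1.25 and 1.41. Epidermal genes were lower in touching than in further spots on each day, with 0.648, 0.5295 and 0.570. Touching spots had median totals of 2018, 6296 and 4079 UMIs, against 1845, 6058 and 6086 further away. The neutrophil list gave 1.56 on Day 3, 0.761 on Day 7 and 1.03 on Day 14.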

How the data were processed

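Visium spatial expression was measured in 1 fresh frozen wound section per day. The deposited matrices hold UMI counts per gene and spot of the whole slide, which the authors made with Space Ranger 1.3.0 on build mm10, per the submitters' processing notes, and the annotation was not given in the sources used here. Position lists by the authors mark the spots under tissue. Nothing was filtered or normalised in the deposited counts.

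Spots were scored, chosen and pooled as the report describes, from all 32285 genes as denominator. The depth was 342283 to 997384 UMIs in the macrophage-rich spots of a section. Each section was compared within itself and each pair of days between macrophage-rich spots, with no test. Ratios carry exact conditional binomial intervals (scipy 1.17.1, Python 3.11.15) for counting error only. A floor of 3 UMIs per pool replaced a count of 0 only in the least folds given between days, not in ratios, intervals or calls. The calculation was tested on simulated data. Alternative scalings used TMM factors (edgeR 4.0.16) and median-of-ratios size factors (DESeq2 1.42.0). Doublet calling does not apply to spots, and the labels carry no batch.

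The rule for named genes took any gene of 24 lists (309 genes), the 10 genes at each end of each comparison by the interval bound nearer to 1, and genes called higher in all 3 sections. Some genes that met this rule are not reported here. The lists overlap, since *Igf1*, *Thbs1*, *Osm*, *Ccl8*, *Fn1*, *Spp1*, *Postn*, *Hdc*, *Cd163*, *Fabp4*, *Lpl*, *Cfd* and *Vegfa* each stand in several. The spots, lists and tests were chosen with earlier results of these data known. The comparison of the largest patch with the other macrophage-rich spots, and the genes named from it, were chosen after its values were seen.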

Additional observations from a re-analysis of the deposited data

Results flagged for a closer look

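The mast cell list stood on opposite sides of 1 in the macrophage-rich spots of the later sections, at 0.4715 on Day 7 and 2.471 on Day 14 over the other spots. With 1 section per day the difference between the days was not tested.

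Spots outside the marked tissue also held macrophage transcripts. Of the unmarked spots with 500 or more UMIs, 20 of 674 on Day 3 (2.97%), 72 of 2118 on Day 7 (3.40%) and 195 of 1780 on Day 14 (11.0%, exact binomial interval 9.54% to 12.5%) had a score at or above the lowest macrophage-rich spot of the same section. These spots entered no comparison above. Their pooled score was 1633, 1198 and 749 CPM, against 4283, 2875 and 1139 CPM in the eligible spots. What those spots contain was not tested.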

How the results depend on the processing

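Each section is 1 library, so leaving out a replicate was not possible. No paired analysis was possible because each day has 1 section. Of 16 alternatives, leaving out the largest patch and leaving out a gene's highest spot were chosen after seeing the data. Of 44 list ratios past 2-fold, 542 of 645 alternative values stayed past 2-fold and 6 changed sign. Of gene ratios past 2-fold, 1629 of 1886 alternative values stayed and 17 changed sign. Both tallies include the limits of 20 and 200 UMIs per gene. These limits change which genes are tested and not the pooled ratios, so their values stayed by construction. Where values moved, the cause was not tested. Genes with under 50 UMIs were not called at this depth. Log2 ratios below are of the macrophage genes outside the score unless a gene or list is named.

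Taking the top 10% gave 0.7589 on Day 7 and 1.165 on Day 14 over other spots, 939 genes lower on Day 14, 236 genes higher on Day 14 than on Day 3, and a share of macrophage-rich neighbours of 26.43% on Day 14. The top 20% gave 345 genes lower on Day 14 and neighbour shares of 37.89% on Day 3 and 43.94% on Day 14.

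Choosing on C1q genes alone gave 0.8571 on Day 3, 0.903 on Day 14 and −0.9609 for Day 7 over Day 3, with 399 genes lower on Day 7. Several Day 3 genes then changed sign, namely *Arg1* (−0.9448), *Ctsl* (−0.02917), *Cxcl5* (−0.534), *Eno1* (−1.659), *Hmox1* (−1.89), *Thbs1* (−0.1604) and *Timp1* (−0.1672), as did *Hmox1* for Day 7 over Day 3 (0.1476).

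Choosing on 500 UMIs per spot, which by construction scores on fewer molecules, gave 0.8852, 0.4883 and 0.3316 on Days 3, 7 and 14, and for Day 14 over Days 7 and 3 −1.135 and −2.155. It called 201 genes higher on Day 3, 79 higher and 327 lower on Day 7, and 59 higher and 92 lower on Day 14. Between days it called 777 higher on Day 14 than on Day 7 and 798 than on Day 3. *Mcpt4* on Day 3 was then 0.6576 and *C5ar1* on Day 14 −0.08795.

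The mean of spot CPM gave 0.9997, 0.7595 and 0.8893 on Days 3, 7 and 14, −1.898 for Day 14 over Day 3, 246 genes higher on Day 7, and 0.1915 for *Mcpt4* on Day 3. TMM factors gave 1.019 on Day 3, −0.9632 when Day 7 was set over Day 3 and −0.8055 when Day 14 was set over Day 7, and median-of-ratios factors gave 1.03 on Day 3. Without neutrophil-rich spots the Day 3 value was 1.272.

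With genes of 20 or more UMIs, which admits more genes, the counts higher and lower were 767 and 1139 on Day 3, 305 and 1085 on Day 7, 620 and 1036 on Day 14, 1054 and 981 from Day 3 to Day 7, 1124 and 738 from Day 7 to Day 14, and 1120 and 815 from Day 3 to Day 14. With 200 or more they were 86 and 147, 29 and 194, 113 and 116, 113 and 95, 84 and 133, and 70 and 84 in the same order.

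Per score-gene UMI the values were −0.2178 when Day 7 was set over Day 3 (1896 genes higher, 124 lower), 0.1336 when Day 14 was set over Day 7 (2052 and 52) and −0.08413 when it was set over Day 3 (2737 and 50). This scale multiplies every list of a comparison by 1 constant, so the turns follow from its construction and say nothing of the lists. For Day 14 over Day 3 they were lipid handling (0.5584), lysosome (0.4246), iron and haem (0.2348), complement (0.0169), fat (0.502) and interferon response (0.6172).

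Without the largest patch the values were 0.9133, 0.9026 and 0.8649 on Days 3, 7 and 14, with −0.6226 when Day 7 was set over Day 3 and −1.052 when Day 14 was set over Day 7. Genes higher and lower numbered 376 and 1305 on Day 7, with 1099 lower on Day 14, and between days 99 and 96, 116 and 150, and 153 and 163 in the order above. On Day 3, *Arg1* (−0.6978), *Eno1* (−2.278), *Hmox1* (−1.101), *Thbs1* (−0.3499) and *Timp1* (−0.3285) changed sign, as did *Myl4* on Day 14 (−1.347).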

Other observations

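The summed list of growth factors and cytokines that act on fibroblasts, which also holds matrix proteins, stood in the macrophage-rich spots at 3126 against 1823 CPM on Day 3 (ratio 1.71), 8140 against 4883 on Day 7 (1.67) and 2586 against 1196 on Day 14 (2.16). Of the genes tested, 1 of 8, 0 of 14 and 4 of 13 were called higher, and the median gene ratio was 1.72, 1.40 and 1.13. *Postn* alone gave 5525 of the 8119 UMIs of the list in the Day 7 macrophage-rich spots, against 58 for *Tgfb1*, 118 for *Tgfb3* and 259 for *Igf1*. Proliferation genes stood at 1557 against 921 CPM on Day 3 (1.69, with 3 of 8 tested genes called higher), 1522 against 1357 on Day 7 (1.12) and 1904 against 2429 on Day 14 (0.784, with 1 of 14 called lower). The Day 3 proliferation list was at −0.45 on the log2 scale without the largest patch, below the rest of the section. *Mki67*, a nuclear protein of cycling cells, gave 2.33, 1.02 and 0.794. *Spi1*, the gene of PU.1, was named after its values were seen and stood at 96.4 against 41.8 CPM on Day 3 (2.31), 79.2 against 39.8 on Day 7 (1.99) and 56.4 against 17.6 on Day 14 (3.19).

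Few genes were called in opposite directions in different sections. Of 8887 genes tested on both Days 7 and 14, 6 were called higher on Day 14 and lower on Day 7, among them *Igfbp2*, *Itgb7*, *Mcpt4* and *Myh8*, for which both intervals lay past 1. *Itgb7*, an integrin chain of lymphocytes and mast cells, stood at 6.02 against 17.7 CPM on Day 7 (0.340) and 46.1 against 17.6 on Day 14 (2.61). *Plk1*, a mitotic kinase, was the reverse, with 2.09 on Day 7 and 0.235 on Day 14.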
